A study of Mus musculus with 12 samples.

Results

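Lymphoid-primed multipotent progenitors (LMPP) were compared with common lymphoid progenitors (CLP) in bulk RNA-seq of mouse bone marrow, to ask which transcripts are gained and lost between a multipotent progenitor and a lymphoid one. All 4 LMPP and all 4 CLP libraries of the series entered the comparison, 8 of its 12 libraries. Genes with a transcript abundance of at least 1 TPM (a length-corrected share of each library's transcripts, scaled to the same total in all) in at least 4 of these 8 libraries were tested, 12289 of the 38924 genes in the table. Both groups came from untreated wild-type female C57Bl/6J mice, an inbred laboratory strain, after depletion of marrow cells that carry mature lineage (Lin) markers. LMPP were sorted as Lin- Sca1+ cKit+ CD150- CD34+ Flk2hi and CLP as Lin- Sca1lo cKitlo IL7Ra+ Flk2+. By their titles, 2 libraries of each type belong to batch 1 and 2 to batch 2. What a batch stands for, the age and number of the mice and the cells behind a library are not given in the labels used here. Because no label ties the libraries of a type to separate animals, p-values measure only how far these libraries spread, and that spread may be technical. In bulk samples, fewer cells of a type and less RNA per cell cannot be told apart.

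LMPP are multipotent cells that have largely left the erythroid and megakaryocytic fates and can still give rise to myeloid and lymphoid cells. CLP follow them on the lymphoid path: signals through Flt3 and the interleukin 7 receptor, together with the transcription factors E2A, EBF1 and PAX5, open the B lineage programme, and the RAG recombinase with terminal transferase assembles antigen receptor genes. Cells that enter this path also shut down stem cell regulators such as HLF and MECOM.

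A library is named by its batch and replicate number, so that b2r3 is replicate 3 of batch 2. Values per library are given in TPM in the order b1r1, b1r2, b2r1 and b2r3 for LMPP, and b1r1, b1r2, b2r1 and b2r2 for CLP. Differences are LMPP minus CLP on the log2(TPM + 1) scale with their standard errors, so a negative value means a higher level in CLP, and the scale understates the change of genes near 0. The threshold for a call was an adjusted p under 0.05 in limma with batch as a term, on 4 LMPP and 4 CLP libraries.

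The genes of the sort were first read as a check of the labels, not as a result. Il7r, which encodes the CLP gate protein IL7Ra, stood at 6.00, 5.14, 10.1 and 11.3 TPM in LMPP and at 86.5, 82.3, 76.6 and 129.8 TPM in CLP. Kit stood between 89.5 and 134.2 TPM in LMPP and between 15.3 and 46.7 TPM in CLP, and Ly6a (Sca1) between 86.0 and 156.1 TPM and between 2.24 and 37.6 TPM. These 3 genes followed the gates with no overlap between the types, although Ly6a was not called (difference 2.70 ± 0.66, adjusted p = 0.0507). Flt3 went against the label of 2 libraries. It encodes Flk2, for which both types were sorted, and was listed at 138.3 and 146.1 TPM in the batch 1 CLP libraries but at 8.91 and 17.0 TPM in the batch 2 CLP libraries, against 101.6 to 156.0 TPM in LMPP. Cd34, part of the LMPP gate only, stood at 111.3 and 163.8 TPM in the batch 1 CLP libraries and at 17.0 and 14.9 TPM in those of batch 2, against 252.2 to 381.6 TPM in LMPP. Slamf1 (CD150) reached at most 0.61 TPM in any of the 8 libraries. Of the 13 gate genes tested, Kit and Cd34 were called higher in LMPP and Il7r higher in CLP. Ly6a joined them as higher in LMPP without the CLP libraries of batch 2. Without LMPP b2r1 and CLP b2r1, only Kit and Il7r were called. The libraries labelled CLP therefore differed between batches in 2 gate genes, and counts of list members are given with and without the CLP libraries of batch 2 wherever these change which members were called.

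Other cell types left signal in both groups. Transcripts of mature neutrophils and macrophages summed to 30500 TPM in LMPP b2r1 and 14700 TPM in CLP b2r1, against 122 to 2550 TPM in the other 6 libraries. Erythroid transcripts summed to 29100 and 13900 TPM in the same pair, called the haemoglobin-rich pair here, against 63.9 to 2620 TPM in the others. Dendritic cell markers summed to 411 and 280 TPM in the batch 1 CLP libraries, 31.7 and 18.8 TPM in those of batch 2, and 56.4 to 150 TPM in LMPP. Mature B and plasma cell markers ranged in sum over 227 to 563 TPM in the CLP and over 132 to 265 TPM in the LMPP libraries. Megakaryocyte markers summed to 84.2 to 110 TPM in LMPP and 18.1 to 46.3 TPM in CLP, with 1 of 13, Gp6, listed at 0 in all 8 libraries. Mast cell, basophil and eosinophil markers summed to 25.2 to 1140 TPM in LMPP and 10.1 to 692 TPM in CLP, and stromal and endothelial markers to 17.4 to 28.3 and 5.57 to 13.5 TPM. What part these cells have in the results below was not tested, and list counts without the haemoglobin-rich pair are given wherever the pair changes which members were called. TPM keeps no sequencing depth, so it is unknown how many reads a value rests on. Libraries listed 11163 to 12987 genes at 1 TPM or more, and mitochondrial and ribosomal RNA genes took 18.0% to 31.4% of the total.

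**Figure D1:**
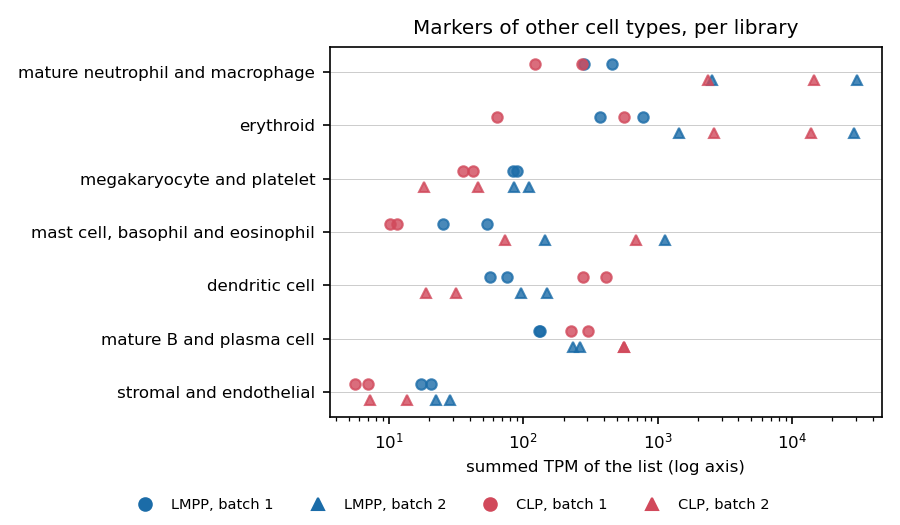
Summed TPM (log axis) of 7 marker lists of other cell types, 1 point per library, blue for LMPP and red for CLP, circles for batch 1 and triangles for batch 2. LMPP b2r1 and CLP b2r1 stand at 30500 and 14700 TPM for neutrophil and macrophage genes, and the batch 1 CLP libraries are the highest for dendritic cell genes, at 280 and 411 TPM.

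Of the 12289 genes, 387 were higher in LMPP (3.15%) and 172 were higher in CLP (1.4%). The difference was at least 2-fold on this scale for 325 and 139 of them, and the libraries of the types did not overlap for 351 and 120. Over all 12289 tested genes, called or not, they did not overlap for 1092 with LMPP higher and 288 with CLP higher. All called genes differed in the same direction in both batches, and 245 and 91 differed by at least 2-fold within each batch. The fit joins both batches and can hardly call a gene with opposite signs, so the shared direction is no separate check. The median difference of all tested genes was 0.16, and median-ratio scaling took it to 0.01. That scaling called 265 genes higher in LMPP and 305 higher in CLP, which moved the share of calls that are higher in LMPP from 69.2% to 46.5%. Of the main calls, 265 of 387 and all 172 of 172 were also called under it. Differences below 0.16 thus sit under the middle of all genes, and directions are given only where the scalings tried left them the same. Each count of list members below is to be set beside the shares of all genes, 3.15% higher in LMPP and 1.4% higher in CLP.

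Each batch was also fitted alone, with 2 libraries per type. Batch 1 called 537 genes higher in LMPP (4.37%) and 240 higher in CLP (1.95%), and batch 2 called 112 (0.912%) and 181 (1.47%). Of the 387 genes called higher in LMPP over both batches, 226 were called in batch 1 alone and 68 in batch 2 alone, and of the 172 higher in CLP, 95 and 72. Over all tested genes, 56.3% had the same sign in both batches. Across genes, as a description on log2(TPM + 1), the CLP libraries of batch 1 correlated with those of batch 2 at r = 0.835 to 0.884 and with the LMPP libraries of batch 1 at r = 0.920 to 0.941. The counts depended on single libraries: 92 and 54 genes were called whichever library was left out. The calls numbered 133 and 99 without LMPP b1r1, 210 and 89 without LMPP b1r2, 122 and 69 without LMPP b2r1 and 137 and 78 without LMPP b2r3. They numbered 114 and 66 without CLP b1r1, 294 and 195 without CLP b1r2, 330 and 112 without CLP b2r1 and 264 and 107 without CLP b2r2. Without the haemoglobin-rich pair they numbered 128 and 44, and without both CLP libraries of batch 2, 322 and 132.

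**Figure D2:**
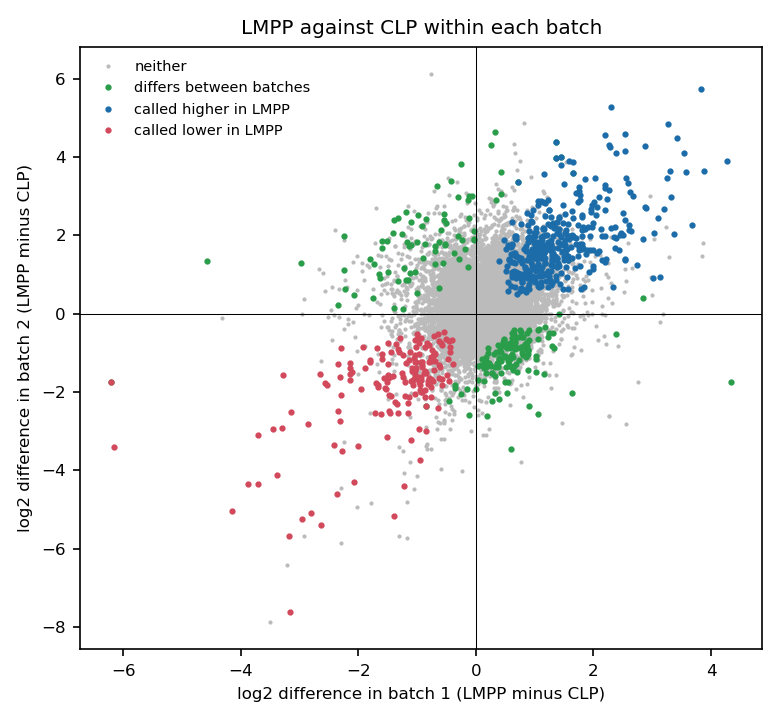
Difference LMPP minus CLP on the log2(TPM + 1) scale in batch 1 (horizontal) and batch 2 (vertical), 1 point per tested gene. The 387 genes higher in LMPP (blue) and the 172 higher in CLP (red) lie in the quadrants where both batches have the same sign. Of the 218 genes whose difference depended on batch (green, or under a blue or red point where also called), 198 lie where the signs are opposite. Both placements follow in large part from the fits that made the calls.

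Leading genes were picked among called genes with no overlap between the types and a mean of 10 TPM or more in the higher type. Their lack of overlap was thus a condition of choice and not a result. The 10 such genes higher in CLP with the largest differences that held in both batches were Bfsp2, Tcrg-C1, Blnk, Ly6d, Rag1, the gate gene Il7r, Socs2, St6gal1, Rag2 and Blk. The call on each of them was kept whichever library was left out. Bfsp2, known as a filament protein of the eye lens, was listed at 2.74, 6.91, 8.64 and 8.69 TPM in LMPP and at 179.1, 50.9, 266.7 and 378.2 TPM in CLP. All CLP libraries lay above all LMPP libraries (difference -4.60 ± 0.41, adjusted p = 0.000806). Tcrg-C1, a constant region of the T cell receptor gamma locus (mm10 chr13:19214103-19217024), stood at 0.23, 0.77, 3.87 and 0 TPM in LMPP and at 39.0, 10.7, 28.7 and 66.7 TPM in CLP. Its libraries did not overlap either (difference -4.11 ± 0.56, adjusted p = 0.00596). Ly6d, a surface protein known from B lineage-biased CLP, stood at 3.80, 1.51, 12.1 and 1.04 TPM in LMPP and at 515.7, 117.2, 53.4 and 54.8 TPM in CLP. CLP b1r1 was far above the other CLP libraries, and the types did not overlap (difference -4.78 ± 0.75, adjusted p = 0.0096; -6.15 in batch 1 and -3.41 in batch 2). St6gal1, a sialyltransferase that makes ligands of the B cell lectin CD22, ranged from 0.95 to 7.84 TPM in LMPP and from 20.02 to 64.4 TPM in CLP (difference -3.11 ± 0.26, adjusted p = 0.000628).

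**Figure D3:**
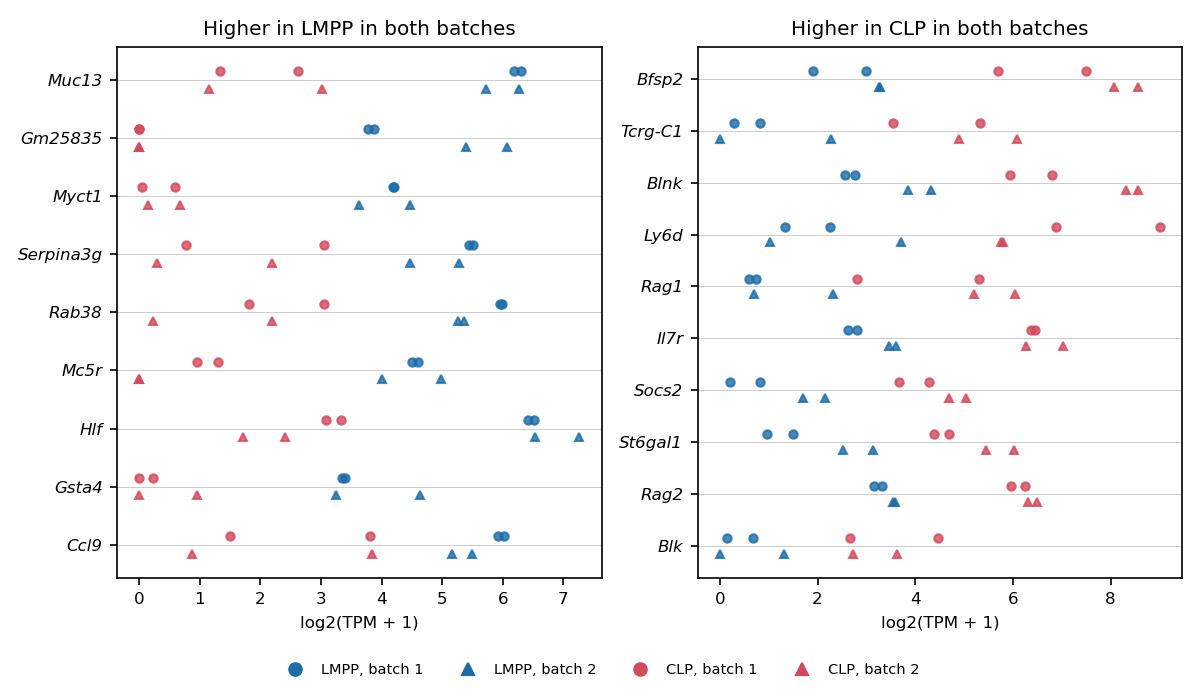
Level of 9 of the 10 leading genes higher in LMPP (left) and of the 10 higher in CLP (right), as log2(TPM + 1), 1 point per library, blue for LMPP and red for CLP, circles for batch 1 and triangles for batch 2. The genes were chosen for no overlap between the types, so in the left panel all LMPP points lie to the right of all CLP points. Gm25835 is at 0 in all 4 CLP libraries. In the right panel the order is turned around, and Bfsp2 spans 2.74 to 8.69 TPM in LMPP and 50.9 to 378.2 TPM in CLP.

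In the V(D)J recombination list, 4 of 13 tested members were higher in CLP and none was higher in LMPP (1 of 13 at an unadjusted p under 0.05). These were Rag1 and Rag2, the recombinase subunits, Dntt, the terminal transferase that adds untemplated bases at the joints, and Xrcc6, the Ku70 subunit of end joining. Rag1 (mm10 chr2:101638282-101649501) stood at 0.51, 0.68, 4.00 and 0.62 TPM in LMPP and at 38.5, 6.00, 35.8 and 64.6 TPM in CLP. LMPP b2r1 was the highest LMPP library and CLP b1r2 the lowest CLP library, and the types did not overlap (difference -3.75 ± 0.55, adjusted p = 0.00785). Rag2, which lies next to Rag1 in the annotation, was steadier, at 7.94, 9.06, 11.1 and 10.7 TPM in LMPP and at 74.9, 61.4, 78.2 and 89.0 TPM in CLP (difference -2.84 ± 0.16, adjusted p = 0.000153; -2.86 and -2.83 in the batches). Dntt was already abundant in LMPP, at 485.3, 536.0, 698.4 and 531.7 TPM, and stood at 1468, 1848, 921.7 and 1341 TPM in CLP. Its types did not overlap (difference -1.28 ± 0.21, adjusted p = 0.0123). The calls on Rag1, Rag2 and Dntt were kept whichever library was left out, while that on Xrcc6 (-0.76 ± 0.17, adjusted p = 0.0385) ended without any 1 of the 8 libraries, with adjusted p = 0.0527 to 0.125. The median of the 13 members was -0.63 over both batches, 0.01 in batch 1 and -0.52 in batch 2, beside 0.16, 0.18 and 0.15 for all genes. Without the haemoglobin-rich pair 2 members were called, Rag2 and Dntt, and without the CLP libraries of batch 2, 3, Rag2, Dntt and Xrcc6. Hmgb1 and Hmgb2, the DNA-bending cofactors of the recombinase, differed between the batches and are given with the batch-dependent genes.

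The pre-B receptor and its signalling genes stood higher in CLP as far as they were called: 5 of 18 tested members, and none higher in LMPP, also at an unadjusted p under 0.05. Blnk, the adaptor that links the receptor to downstream kinases, stood at 4.93, 5.80, 19.1 and 13.5 TPM in LMPP and at 111.3, 60.4, 318.3 and 376.8 TPM in CLP. The types did not overlap (difference -4.03 ± 0.24, adjusted p = 0.000153). Blk, a Src family kinase, ranged from 0 to 1.48 TPM in LMPP and from 5.35 to 21.1 TPM in CLP (difference -2.84 ± 0.47, adjusted p = 0.0129). Ighm, the constant region of the mu heavy chain, was 214 to 679 TPM in LMPP and 620 to 1279 TPM in CLP, with LMPP b2r1 above CLP b1r2 (difference -1.31 ± 0.17, adjusted p = 0.00573). Vpreb1 and Vpreb2, surrogate light chain genes that are near copies of each other, were uneven among the CLP libraries. Vpreb1 stood at 1.89, 0.35, 1.25 and 3.02 TPM in LMPP and at 132.2, 1.33, 478.9 and 725.6 TPM in CLP, so that CLP b1r2 lay within the LMPP range (difference -5.39 ± 1.23, adjusted p = 0.0406). The call on Vpreb1 ended without any 1 library other than CLP b1r2 (adjusted p = 0.0578 to 0.127), and that on Vpreb2 (-3.95 ± 0.87, adjusted p = 0.0365) likewise (adjusted p = 0.0622 to 0.115). Without CLP b1r2, 11 members were called; without any other 1 library, without the haemoglobin-rich pair and without the CLP libraries of batch 2, 3 were, and in the last 2 cases these were Blk, Blnk and Ighm. Igll1, the other surrogate light chain gene, and Cd79a, a receptor signalling chain, were picked out after their values were seen. Igll1 stood at 0, 1.73, 8.04 and 11.02 TPM in LMPP and at 314.7, 0.13, 2222 and 2677 TPM in CLP and was not called (difference -5.69 ± 1.52, adjusted p = 0.0701). Cd79a was not called either (difference -4.30 ± 1.05, adjusted p = 0.0514). The list median was -1.71, with -1.33 in batch 1 and -2.19 in batch 2, and 16 of 18 members were negative in both batches. Batch 1 alone called 3 members higher in CLP and batch 2 alone 9. Of the 5 mature B and plasma cell markers tested, Cd37, a tetraspanin of B cells, was higher in CLP whichever library was left out (-1.39 ± 0.14, adjusted p = 0.00153). Cxcr5, a chemokine receptor, was listed at 1.32 to 2.71 TPM in CLP and at most 0.31 TPM in LMPP (-1.39 ± 0.30, adjusted p = 0.0328), a call that ended without any 1 library other than CLP b2r2 (adjusted p = 0.0653 to 0.120). Cd37 alone of these markers was called without the haemoglobin-rich pair, and Cd37 and Sdc1, which encodes the plasma cell proteoglycan CD138, without the CLP libraries of batch 2.

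Among lymphoid transcription factors, 4 of 19 tested members were higher in CLP and none was higher in LMPP (2 at an unadjusted p under 0.05). Ebf1, the factor that starts the B cell programme, stood at 0.61, 0.67, 7.10 and 2.08 TPM in LMPP and at 43.4, 4.00, 222.1 and 288.1 TPM in CLP. CLP b1r2 lay below LMPP b2r1, and the batch 2 CLP libraries were the highest (difference -4.43 ± 0.72, adjusted p = 0.0114). Tcf3, which encodes the E proteins E12 and E47, was 16.4 to 26.2 TPM in LMPP and 45.6 to 66.2 TPM in CLP with no overlap (difference -1.45 ± 0.21, adjusted p = 0.00672). The calls on Ebf1 and Tcf3 were kept whichever library was left out. Pax5, which holds cells in the B lineage, stood at 0, 0.11, 6.41 and 1.51 TPM in LMPP and at 35.6, 0.81, 158.3 and 167.5 TPM in CLP (difference -4.10 ± 0.86, adjusted p = 0.0292). Its call ended without any 1 library other than CLP b1r2 (adjusted p = 0.0571 to 0.0912). Bach2, a repressor of plasma cell and myeloid genes, was 6.57 to 10.6 TPM in LMPP and 16.9 to 83.9 TPM in CLP (difference -1.85 ± 0.32, adjusted p = 0.0149), and its call ended without LMPP b2r1 (adjusted p = 0.0578) or LMPP b2r3 (adjusted p = 0.0507). The 19 lymphoid factors had a median of -0.74, with -0.79 in batch 1 and -0.40 in batch 2. Batch 1 alone called 4 members higher in CLP, Bach2, Ikzf1, Irf8 and Tcf3, and 1 higher in LMPP, Hhex. Batch 2 alone called 7 higher in CLP, Bach2, Ebf1, Foxo1, Irf4, Pax5, Pou2af1 and Tcf3, and 0 higher in LMPP. Calls higher in CLP numbered 8 without CLP b1r2, 2 without LMPP b2r1 or LMPP b2r3, 0 without the haemoglobin-rich pair and 4 without the CLP libraries of batch 2. These 4 were Bach2, Tcf3, Ikzf1 and Irf8, so that Ebf1 and Pax5 were not among them.

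In cytokine signalling, 1 of 14 members of the interleukin 7 and common gamma chain list was higher in CLP and 1 was higher in LMPP, beside 1.4% and 3.15% of all genes. Socs2, a feedback inhibitor of cytokine receptors, stood at 0.16, 0.78, 3.47 and 2.24 TPM in LMPP and at 18.5, 11.8, 25.0 and 31.8 TPM in CLP. The types did not overlap and the call was kept whichever library was left out (difference -3.20 ± 0.28, adjusted p = 0.000794). Il2rg, the shared gamma chain, was higher in LMPP by 0.68 ± 0.16 (adjusted p = 0.0487). Its call ended without any 1 of the 8 libraries (adjusted p = 0.0563 to 0.144), without the haemoglobin-rich pair and without the CLP libraries of batch 2. Median-ratio scaling ended it as well. T lineage genes gave 2 of 12 members higher in CLP and none higher in LMPP (1 at an unadjusted p under 0.05). These were constant regions of antigen receptor genes, Tcrg-C1, given above, and Trbc2 of the beta locus. Trbc2 was 1.57 to 6.81 TPM in LMPP and 14.8, 9.85, 10.2 and 56.6 TPM in CLP (difference -2.19 ± 0.46, adjusted p = 0.0292). Leaving out any 1 library other than CLP b2r1 and CLP b2r2 ended that call (adjusted p = 0.0531 to 0.102). The T lineage median was -0.99, with -0.59 in batch 1 and -1.23 in batch 2. Batch 1 alone called 4 members higher in CLP, Tcrg-C1, Trbc2, the receptor gene Notch1 and the kinase gene Lck. Batch 2 alone called 0, so neither Tcrg-C1 nor Trbc2 was called there. Without the CLP libraries of batch 2, the same 4 members as in batch 1 alone were higher in CLP. Of the SLAM family surface receptors, Slamf6 was 0.31 to 1.24 TPM in LMPP and 10.7, 3.83, 38.4 and 43.6 TPM in CLP (difference -3.49 ± 0.49, adjusted p = 0.00659, kept whichever library was left out). Cd84 of the same family was higher in LMPP, by 0.93 ± 0.18 (adjusted p = 0.0220), and its call ended without CLP b1r1 or any 1 LMPP library (adjusted p = 0.0515 to 0.0912). Neither was called without the haemoglobin-rich pair, and Slamf6 alone was without the CLP libraries of batch 2.

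Of the GIMAP GTPases, which act in lymphocyte survival, 2 of 7 were higher in CLP and none was higher in LMPP, also at an unadjusted p under 0.05. Gimap4 (-2.09 ± 0.50, adjusted p = 0.0487) lost its call without any 1 library other than CLP b1r2 (adjusted p = 0.0803 to 0.135), and Gimap7 (-1.69 ± 0.37, adjusted p = 0.0341) without any 1 other than LMPP b2r1 (adjusted p = 0.0543 to 0.109). Without the haemoglobin-rich pair 1 member was called, Gimap7, and without the CLP libraries of batch 2, 0 were. In the early lymphoid surface list Ly6d was the 1 call of 9 members, and the list median was -0.11, with -0.61 in batch 1 and 0.11 in batch 2. Ly86, which encodes MD-1, was called higher in CLP beside it without the CLP libraries of batch 2. No NK or innate lymphoid gene of the 8 tested was called in limma, with 1 higher in LMPP and 0 lower at an unadjusted p under 0.05. Nkg7, a granule membrane protein, was 97.5 to 155.3 TPM in LMPP and 27.0 to 87.1 TPM in CLP without overlap (difference 0.98 ± 0.29, adjusted p = 0.0876). Klrd1, the CD94 receptor chain, had a difference of -0.77 ± 0.86 (adjusted p = 0.641). Without the CLP libraries of batch 2, Nkg7 was called higher in LMPP and Klrd1 higher in CLP.

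The 10 leading genes higher in LMPP were picked under the same conditions, no overlap between the types among them. They had the largest differences that held in both batches and included Muc13, Gm25835, Myct1, Serpina3g, Rab38, Mc5r, Hlf, Gsta4 and Ccl9. Muc13, a transmembrane mucin (mm10 chr16:33794037-33819934), stood at 72.1, 77.6, 51.6 and 75.8 TPM in LMPP and at 1.51, 5.15, 7.07 and 1.21 TPM in CLP. The types were far apart in both batches (difference 4.09 ± 0.42, adjusted p = 0.00153; 4.27 and 3.91). Gm25835, a gene annotated as a small nucleolar RNA, was listed at 13.7, 12.7, 40.8 and 66.5 TPM in LMPP and at 0 in all 4 CLP libraries. It thus passed the filter on low values through the LMPP libraries alone. Its difference ranged from 3.83 to 8.04 over the alternatives tried. Rab38, a small GTPase of lysosome-related organelles, was 37.3 to 62.7 TPM in LMPP and 0.17 to 7.29 TPM in CLP (difference 3.82 ± 0.43, adjusted p = 0.00258). Mc5r, a melanocortin receptor, was 15.1 to 30.5 TPM in LMPP, 1.47 and 0.94 TPM in the batch 1 CLP libraries and listed at 0 in those of batch 2 (difference 3.96 ± 0.32, adjusted p = 0.000628). Serpina3g, a protease inhibitor with near copies beside it in the genome, was 21.0 to 44.5 TPM in LMPP and 0.23 to 7.25 TPM in CLP (difference 3.60 ± 0.53, adjusted p = 0.00785). The calls on Muc13, Gm25835, Myct1, Serpina3g, Rab38, Mc5r, Hlf and Gsta4 were kept whichever library was left out. Ccl9, a chemokine, was 34.9 to 64.2 TPM in LMPP and 0.82 to 13.3 TPM in CLP (difference 3.15 ± 0.64, adjusted p = 0.0269), and its call ended without CLP b1r1 or any 1 LMPP library (adjusted p = 0.0674 to 0.0792).

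Of the stem cell regulators, 10 of 19 tested members were higher in LMPP and none was higher in CLP, also at an unadjusted p under 0.05. Hlf, a transcription factor that marks stem and early progenitor cells, stood at 91.0, 84.5, 91.3 and 153.0 TPM in LMPP and at 7.42, 9.05, 2.29 and 4.32 TPM in CLP. All LMPP libraries lay above all CLP libraries, and b2r3 was the highest (difference 4.05 ± 0.34, adjusted p = 0.000669). Myct1, known from stem and endothelial cells, stood at 17.2, 17.5, 11.4 and 21.3 TPM in LMPP and at no more than 0.60 TPM in CLP (difference 3.76 ± 0.29, adjusted p = 0.000587). Mecom, a zinc finger factor needed by stem cells, was uneven, at 69.4, 20.7, 26.9 and 78.4 TPM in LMPP and at 2.72, 16.2, 0.33 and 0.11 TPM in CLP. CLP b1r2 came near the lowest LMPP library (difference 3.78 ± 0.73, adjusted p = 0.0223), and the call ended without any 1 library other than CLP b1r2 and LMPP b1r2 (adjusted p = 0.0556 to 0.0792). Lmo2, a bridging factor of blood transcription complexes, was 292.2 to 380.2 TPM in LMPP and 27.6 to 66.4 TPM in CLP (difference 2.71 ± 0.26, adjusted p = 0.00112), and Angpt1, a ligand of the receptor Tie2, was 49.3 to 74.5 TPM and 3.41 to 12.7 TPM (difference 3.02 ± 0.24, adjusted p = 0.000587). Procr, the protein C receptor used to mark stem cells, was 4.68 to 8.33 TPM in LMPP and at most 0.19 TPM in CLP (difference 2.85 ± 0.28, adjusted p = 0.00137). The calls on Hlf, Myct1, Lmo2, Angpt1 and Procr were kept whichever library was left out. Those on the transcription factor genes Gata2, Tal1 and Nkx2-3 ended without CLP b1r1 or LMPP b1r1 for Nkx2-3 (adjusted p = 0.0520 to 0.0532), without CLP b1r1 or LMPP b2r1 for Tal1 (0.0518 to 0.0541), and without CLP b1r1, LMPP b1r1, LMPP b1r2 or LMPP b2r3 for Gata2 (0.0559 to 0.0666). The 19 stem cell regulators had a median difference of 1.70, with 1.71 in batch 1 and 1.52 in batch 2, and 14 of 19 members were positive in both batches. In batch 1 alone 9 members were called higher in LMPP and 1 higher in CLP, Gfi1b, a repressor of erythroid and megakaryocytic cells; in batch 2 alone 7 were higher in LMPP and 1 higher in CLP, Erg. With any 1 library left out, 6 (without CLP b1r1) to 10 members were called, and 8 were called both without the haemoglobin-rich pair and without the CLP libraries of batch 2. Erg, an Ets factor, differed between the batches and is given below.

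HOX, MEIS and PBX genes, homeobox factors of stem and early progenitor cells, gave 3 of 13 members higher in LMPP and none higher in CLP, also at an unadjusted p under 0.05. Meis1 stood at 63.9, 53.1, 74.1 and 111.5 TPM in LMPP and at 17.0, 28.3, 6.18 and 3.72 TPM in CLP. Every LMPP library was above every CLP library (difference 2.68 ± 0.49, adjusted p = 0.0180), and the difference was larger in batch 2, at 3.98 against 1.37 (batch-dependence adjusted p = 0.0409). The call on Meis1 ended without CLP b1r1 (adjusted p = 0.0508), LMPP b2r1 (0.0678) or LMPP b2r3 (0.0523). Hoxa10 was 5.13 to 9.78 TPM in LMPP and at most 4.02 TPM in CLP (difference 1.95 ± 0.40, adjusted p = 0.0273), a call that ended without any 1 library other than CLP b1r2 and LMPP b1r2 (adjusted p = 0.0577 to 0.0960). The list median was 0.82, with 0.35 in batch 1 and 1.49 in batch 2. Calls numbered 1 without CLP b1r1, LMPP b2r1 or LMPP b2r3, 2 without LMPP b1r1, CLP b2r1 or CLP b2r2, 0 without the haemoglobin-rich pair and 2 without the CLP libraries of batch 2.

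**Figure D4:**
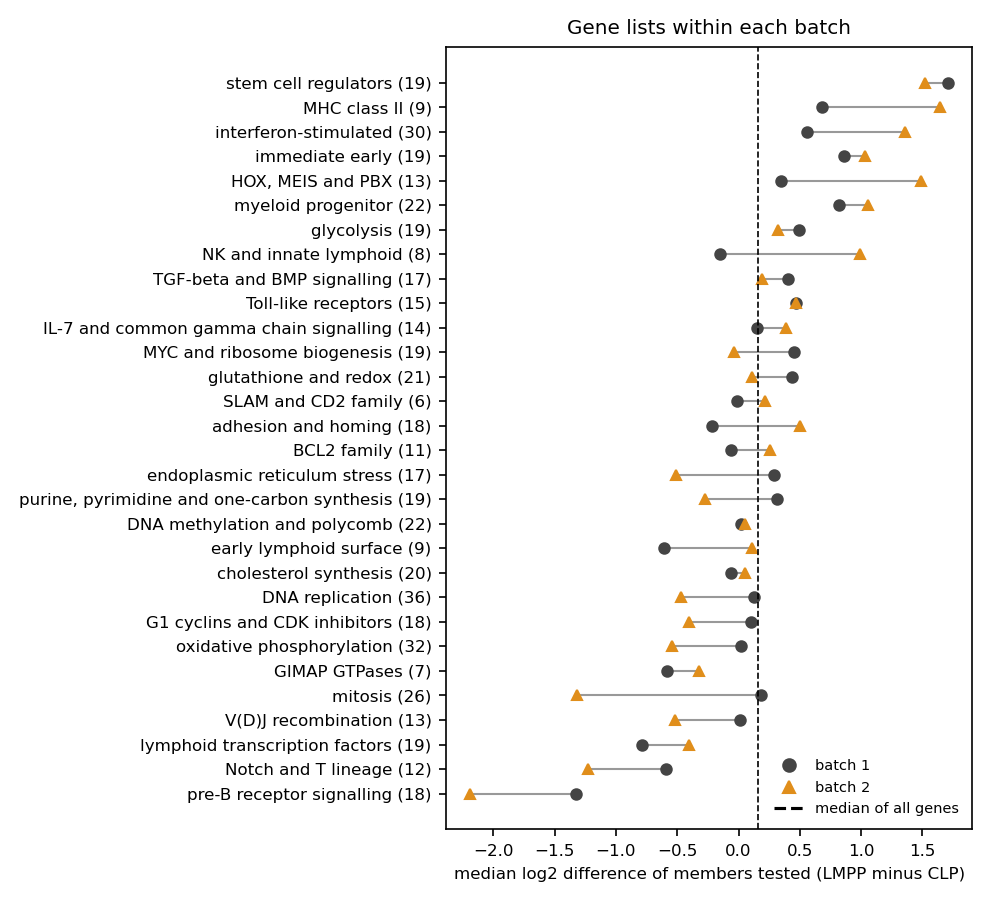
Median difference LMPP minus CLP (log2 scale) of the tested members of 30 gene lists in batch 1 (circles) and batch 2 (triangles), with the number of tested members in brackets and a dashed line at the median of all genes, 0.16. Stem cell regulators stand at 1.71 and 1.52, pre-B receptor genes at -1.33 and -2.19, and mitosis genes at 0.18 and -1.32.

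Of 22 myeloid progenitor genes, 1 was higher in LMPP, beside 3.15% of all genes: Csf3r, the receptor for the granulocyte growth factor G-CSF. None was higher in CLP; 10 were higher in LMPP and 0 in CLP at an unadjusted p under 0.05. Csf3r stood at 64.5, 43.4, 87.1 and 64.7 TPM in LMPP and at 3.65, 10.4, 29.5 and 3.57 TPM in CLP. The types did not overlap, and CLP b2r1, of the haemoglobin-rich pair, was the highest CLP library (difference 2.79 ± 0.53, adjusted p = 0.0210). Its call ended without CLP b1r1 or any 1 LMPP library (adjusted p = 0.0513 to 0.0767). Ctsg, a granule protease, was 99.3 to 186.0 TPM in LMPP and 5.89, 17.7, 186.3 and 4.63 TPM in CLP, where CLP b2r1 matched the highest LMPP library (difference 2.83 ± 0.93, adjusted p = 0.117). The 22 myeloid genes had a median of 0.78, with 0.82 in batch 1 and 1.06 in batch 2, and 15 of 22 members were positive in both batches. In batch 1 alone 8 members were called higher in LMPP and 2 higher in CLP, Fcer1g, a chain of Fc receptors, and Plac8; in batch 2 alone 0 were called. Without CLP b2r1, 7 members were called; without both libraries of the haemoglobin-rich pair, 5; without the CLP libraries of batch 2, 6 higher in LMPP and 1 higher in CLP, Plac8. Neutrophil and macrophage markers gave no call among 15 tested and 0 at an unadjusted p under 0.05 in either direction, and the same held for the 6 mast cell, basophil and eosinophil markers. Without the haemoglobin-rich pair 1 of each was called higher in LMPP, the lysozyme gene Lyz2 and the basophil protease gene Mcpt8, and Mcpt8 was also called without the CLP libraries of batch 2.

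Receptor and adhesion genes gave scattered calls, beside 3.15% of all genes higher in LMPP and 1.4% higher in CLP. Of 15 Toll-like receptor genes, 1 was higher in LMPP, the signalling kinase Irak1 (0.81 ± 0.18, adjusted p = 0.0373), which lost its call without any 1 of the 8 libraries (adjusted p = 0.0517 to 0.107). Neither the fit without the haemoglobin-rich pair nor that without the CLP libraries of batch 2 called Irak1 or Bmpr2, given next. Both calls also ended under median-ratio scaling, where 1 TGF-beta and BMP gene was higher in CLP. No Toll-like receptor gene was higher in CLP (1 at an unadjusted p under 0.05). Of 17 TGF-beta and BMP genes, 1 was higher in LMPP, the receptor gene Bmpr2 (0.87 ± 0.20, adjusted p = 0.0428), which lost its call without any 1 library other than CLP b1r2 (adjusted p = 0.0765 to 0.138); none was higher in CLP (1 at an unadjusted p under 0.05). Of 9 MHC class II genes, which present peptides to T cells, H2-Aa and H2-Ab1 were higher in LMPP and none was higher in CLP, also at an unadjusted p under 0.05. H2-Aa stood at 78.9, 93.3, 149.2 and 459.8 TPM in LMPP and at 31.3, 30.4, 104.8 and 42.6 TPM in CLP. LMPP b2r3 was the highest and CLP b2r1 lay within the LMPP range (difference 1.70 ± 0.37, adjusted p = 0.0341). The call on H2-Aa ended without any 1 library other than CLP b2r1 and LMPP b2r1 (adjusted p = 0.0604 to 0.0907), and that on H2-Ab1 (1.28 ± 0.29, adjusted p = 0.0409) without any 1 other than LMPP b2r1 (adjusted p = 0.0660 to 0.120). Without the haemoglobin-rich pair H2-Ab1 alone was called, and without the CLP libraries of batch 2, 0 members were higher in LMPP and 1, H2-Ob, was higher in CLP. Batch 1 alone called H2-Aa, H2-Ab1 and H2-Eb1 higher in LMPP and H2-Ob higher in CLP, and batch 2 alone called H2-DMa and H2-DMb1 higher in LMPP. Of 18 adhesion and homing genes, Cxcr4, the receptor that holds progenitors in the marrow, was higher in CLP (-0.94 ± 0.19, adjusted p = 0.0271), as was the integrin gene Itga4 (-0.64 ± 0.15, adjusted p = 0.0445). The integrin gene Itga6 was higher in LMPP (1.01 ± 0.23, adjusted p = 0.0427). Its call ended under median-ratio scaling, where 0 adhesion and homing genes were higher in LMPP and 2 were higher in CLP. Leaving out any 1 library ended the call on Cxcr4 (except CLP b1r2 and LMPP b2r1, adjusted p = 0.0549 to 0.0938), on Itga4 (except CLP b2r1, 0.0816 to 0.127) and on Itga6 (except CLP b1r2 and LMPP b1r2, 0.0790 to 0.133). None of these 3 was called without the haemoglobin-rich pair or without the CLP libraries of batch 2. The chemokine receptor gene Ccr2 was then higher in LMPP in both fits, and Ccr7 and Selplg were higher in CLP in the second.

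Some genes usually listed as markers of other lineages were higher in LMPP. Selp, which encodes P-selectin of platelets and endothelium, stood at 8.23, 10.3, 9.29 and 13.1 TPM in LMPP and at 0.06, 0.16, 1.2 and 0.61 TPM in CLP with no overlap (difference 2.94 ± 0.27, adjusted p = 0.00110). Nfe2, a megakaryocyte and erythroid factor, was 42.2 to 59.3 TPM in LMPP and 10.2 to 18.3 TPM in CLP (difference 1.65 ± 0.19, adjusted p = 0.00300). Both calls were kept whichever library was left out, and they were the 2 calls among 7 megakaryocyte markers; Itga2b, the CD41 integrin gene, joined them without the haemoglobin-rich pair and without the CLP libraries of batch 2. Of 10 erythroid markers 1 was called, beside 3.15% of all genes higher in LMPP. This was Car2, a carbonic anhydrase (2.04 ± 0.43, adjusted p = 0.0292, with 3.14 in batch 1 and 0.93 in batch 2). It lost its call without any 1 library other than CLP b2r1 and LMPP b2r3 (adjusted p = 0.0570 to 0.0926) and without the haemoglobin-rich pair. Emcn, a sialoglycoprotein of endothelial and stem cells, was the 1 stromal and endothelial marker tested. It was 7.79 to 19.7 TPM in LMPP and 0.82 to 5.11 TPM in CLP (difference 2.01 ± 0.39, adjusted p = 0.0228), and its call ended without CLP b1r1, LMPP b1r1, LMPP b1r2 or LMPP b2r3 (adjusted p = 0.0592 to 0.0851) and without the CLP libraries of batch 2.

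Interferon-stimulated genes, which restrict virus replication and which stem and early progenitor cells are known to express without infection, gave 8 of 30 tested members higher in LMPP and 1 higher in CLP. The 8 were Ifit1, Oas2, Oas3, Oasl2, Ddx58, Ifitm1, Ifitm2 and Ifitm3. Ifitm3, a membrane protein that blocks virus entry, stood at 574.9, 521.7, 728.2 and 726.3 TPM in LMPP and at 164.3, 183.7, 304.3 and 115.2 TPM in CLP. All LMPP libraries were above all CLP libraries (difference 1.80 ± 0.26, adjusted p = 0.00709). Ifitm1 of the same family stood at 308.6, 320.7, 233.2 and 281.2 TPM in LMPP and at 65.0, 63.0, 28.3 and 5.11 TPM in CLP (difference 3.27 ± 0.51, adjusted p = 0.00934). The calls on Ifitm1, Ifitm3 and Ddx58, the RNA sensor RIG-I, were kept whichever library was left out, while that on Ifitm2 ended without CLP b1r1, LMPP b1r1, LMPP b1r2 or LMPP b2r3 (adjusted p = 0.0529 to 0.0766). Oasl2, an oligoadenylate synthetase-like protein, was 26.2 to 78.8 TPM in LMPP and 1.26 to 15.6 TPM in CLP (difference 2.62 ± 0.59, adjusted p = 0.0386), and its call ended without any 1 library other than CLP b1r2, CLP b2r2 and LMPP b1r2 (adjusted p = 0.0566 to 0.121). Oas2 (2.00 ± 0.44, adjusted p = 0.0341) lost its call without any 1 other than CLP b1r2 and LMPP b1r2 (adjusted p = 0.0673 to 0.104). Ifi27l2a went the other way, at 16.3 to 33.8 TPM in LMPP and 44.3 to 137.2 TPM in CLP (difference -1.76 ± 0.30, adjusted p = 0.0145), with its call ended without CLP b1r1 (adjusted p = 0.0569) or LMPP b2r3 (0.0512). The median of the 30 genes was 0.99, with 0.56 in batch 1 and 1.36 in batch 2, and 23 of 30 members were positive in both batches. Higher calls numbered 3 without CLP b1r1 or LMPP b1r1, 4 without LMPP b2r1 or LMPP b2r3 and 7 or 8 without any other 1 library, 4 without the haemoglobin-rich pair (Ddx58, Ifitm2, Ifitm3 and Rsad2) and 7 without the CLP libraries of batch 2. In batch 1 alone 9 were called higher in LMPP and in batch 2 alone 1, Ifitm1.

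Promoters of 3 lists were searched on both strands for the core letters of a factor known to act on such genes. For the interferon-stimulated genes this was the core of the interferon response element, spelled GAAANNGAA. Of the RefSeq promoter windows (GRCm38.p6, 250 bases before to 50 after a start), 14 of 23 windows of the list's genes held it (60.9%), against 8.56% of all 32851 windows. Of the 8 members higher in LMPP, 7 had a window and 5 of these held a match. The EBF core, spelled CCCNNGGG, was in 3 of 14 windows of the pre-B receptor list (21.4%, against 13.7% of all windows) and in 0 of the 3 windows of its members higher in CLP. The E2F letters TTTCCCGC were in 6 of 32 windows of the DNA replication list (18.8%, against 1.07%). A match is a description of these letters and not a site. The windows of 3 interferon-stimulated members are shown 5′ to 3′ on the strand of the gene with the matches in capitals, to show where the letters sit relative to the start. The Ifit1 window is chr19:34640639-34640938 on the plus strand, the Oas3 window chr5:120777610-120777909 on the minus strand and the Ifitm3 window chr7:141010695-141010994 on the minus strand.
Ifit1: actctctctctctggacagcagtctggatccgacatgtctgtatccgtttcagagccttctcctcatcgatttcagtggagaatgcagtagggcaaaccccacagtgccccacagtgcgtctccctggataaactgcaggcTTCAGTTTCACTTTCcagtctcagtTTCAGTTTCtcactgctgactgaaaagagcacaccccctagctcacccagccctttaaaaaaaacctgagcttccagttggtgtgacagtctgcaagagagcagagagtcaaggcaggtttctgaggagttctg
Oas3: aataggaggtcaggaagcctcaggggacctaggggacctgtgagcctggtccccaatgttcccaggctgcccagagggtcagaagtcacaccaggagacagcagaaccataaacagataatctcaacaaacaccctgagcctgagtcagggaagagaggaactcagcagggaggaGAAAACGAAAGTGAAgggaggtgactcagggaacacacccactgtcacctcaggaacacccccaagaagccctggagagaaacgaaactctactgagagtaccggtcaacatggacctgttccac
Ifitm3: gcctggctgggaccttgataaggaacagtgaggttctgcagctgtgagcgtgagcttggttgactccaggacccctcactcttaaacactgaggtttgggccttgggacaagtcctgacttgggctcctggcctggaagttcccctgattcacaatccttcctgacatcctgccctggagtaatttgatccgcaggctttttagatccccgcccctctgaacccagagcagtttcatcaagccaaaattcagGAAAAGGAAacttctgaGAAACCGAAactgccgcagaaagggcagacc
Ifit1 held 3 matches on the opposite strand, Oas3 2 that overlap and Ifitm3 2 just after its start. Ifit1 stood at 6.50, 4.53, 5.07 and 4.68 TPM in LMPP and at 1.24, 1.09, 1.25 and 1.30 TPM in CLP (difference 1.47 ± 0.25, adjusted p = 0.0142). Oas3 stood at 18.2, 18.0, 27.8 and 21.1 TPM in LMPP and at 5.96, 8.08, 9.76 and 4.37 TPM in CLP (difference 1.5 ± 0.27, adjusted p = 0.0175). Neither overlapped between the types. The call on Ifit1 ended without CLP b1r1, LMPP b1r1 or LMPP b2r1 (adjusted p = 0.0541 to 0.0630) and that on Oas3 without CLP b1r1, LMPP b1r1, LMPP b2r1 or LMPP b2r3 (adjusted p = 0.0512 to 0.0671). These 3 windows were chosen after the values were seen.

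Immediate early genes, which cells switch on within minutes of a stimulus and which are also known to respond to cell isolation, gave 7 of 19 members higher in LMPP and none higher in CLP, also at an unadjusted p under 0.05. They were Fos, Fosb, Egr1, Ier3, Dusp1, Zfp36 and Klf6. Fos, part of the AP-1 factor, stood at 61.5, 29.6, 70.2 and 164.1 TPM in LMPP and at 2.98, 11.99, 25.2 and 18.6 TPM in CLP. The types did not overlap and LMPP b2r3 was the highest (difference 2.43 ± 0.42, adjusted p = 0.0146). Egr1, a zinc finger factor, was 9.38 to 132.1 TPM in LMPP and 2.66 to 12.8 TPM in CLP, with overlap (difference 2.33 ± 0.45, adjusted p = 0.0215). Ier3 was 12.4 to 30.1 TPM in LMPP and 0.61 to 6.38 TPM in CLP (difference 2.58 ± 0.50, adjusted p = 0.0228), and Fosb had a difference of 2.10 ± 0.49 (adjusted p = 0.0440). The call on Fos ended without LMPP b2r3 (adjusted p = 0.0533), that on Ier3 without CLP b1r1, LMPP b1r1, LMPP b2r1 or LMPP b2r3 (adjusted p = 0.0710 to 0.0768), and those on Egr1 and Fosb without any 1 library other than CLP b1r2 and LMPP b1r2 (adjusted p = 0.0531 to 0.0789 and 0.0684 to 0.126). Those on Dusp1, Zfp36 and Klf6 ended as well: for Dusp1 without CLP b1r1, LMPP b1r1, LMPP b1r2 or LMPP b2r3 (0.0553 to 0.0693), for Zfp36 without any 1 library other than CLP b1r2 and LMPP b1r2 (0.0508 to 0.0830), and for Klf6 without any 1 other than CLP b2r1 and CLP b2r2 (0.0549 to 0.0899). The list median was 0.90, with 0.86 in batch 1 and 1.03 in batch 2, and 18 of 19 members were positive in both batches. Calls numbered 1 without CLP b1r1 or LMPP b1r1, 4 without CLP b2r1 or CLP b2r2, 2 without LMPP b2r1, 0 without LMPP b2r3, 1 without the haemoglobin-rich pair and 2 without the CLP libraries of batch 2.

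Among regulators of the G1 phase, 3 of 18 members were higher in CLP and none was higher in LMPP (3 at an unadjusted p under 0.05). Ccnd3, the D-type cyclin on which pre-B cell expansion depends, stood at 40.7, 42.8, 58.2 and 46.3 TPM in LMPP and at 167.4, 83.1, 268.5 and 326.5 TPM in CLP. The types did not overlap (difference -1.98 ± 0.27, adjusted p = 0.00606). Cdkn1a, the inhibitor p21, was 17.1 to 63.8 TPM in LMPP and 73.5 to 170.4 TPM in CLP (difference -1.85 ± 0.24, adjusted p = 0.00508). The calls on Ccnd3 and Cdkn1a were kept whichever library was left out. Ccne2, a cyclin of S phase entry, was higher in CLP by a difference of -1.28 ± 0.25 (adjusted p = 0.0223), and its call ended without CLP b1r1, CLP b2r1, LMPP b1r1, LMPP b2r1 or LMPP b2r3 (adjusted p = 0.0503 to 0.0887). Cdkn1a alone was called without the haemoglobin-rich pair, and without the CLP libraries of batch 2, Ccnd3 and Cdkn1a. No DNA replication gene of 36 was called in limma; 0 were higher in LMPP and 6 higher in CLP at an unadjusted p under 0.05, and the list median was -0.18, with 0.13 in batch 1 and -0.47 in batch 2.

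Mitosis genes depended on the batch. Over both batches 2 of 26 members were higher in CLP, beside 1.4% of all genes. They were the kinase gene Plk1 (-1.12 ± 0.24, adjusted p = 0.0335) and the ubiquitin-conjugating enzyme gene Ube2c (-1.04 ± 0.22, adjusted p = 0.0310). No member was higher in LMPP, also at an unadjusted p under 0.05. The call on Plk1 ended without any 1 library other than CLP b1r2 (adjusted p = 0.0555 to 0.106) and that on Ube2c without any 1 other than CLP b1r2 and LMPP b1r2 (adjusted p = 0.0636 to 0.101). No mitosis gene was called without the haemoglobin-rich pair or without the CLP libraries of batch 2. The batches stood apart: the list median was 0.18 in batch 1 and -1.32 in batch 2, with 0 members called in batch 1 alone and 12 called higher in CLP in batch 2 alone. Whether the difference itself depended on batch was tested with an interaction term, coded as batch 2 minus batch 1 of the LMPP minus CLP difference, in limma with 4 residual degrees of freedom. It called 218 of 12289 genes (1.77%), and 11 of the 26 mitosis genes: Ccnb1, Bub1, Cdc20, Kif11, Cenpe, Cenpf, Top2a, Mki67, Nusap1, Ndc80 and Nuf2. Ccnb1, cyclin B1, stood at 60.7, 87.4, 78.1 and 71.7 TPM in LMPP and at 59.8, 55.7, 313.6 and 304.9 TPM in CLP. Both batch 2 CLP libraries were above all others, and both batch 1 CLP libraries were below all LMPP libraries (interaction -2.36 ± 0.27, adjusted p = 0.0146). Mki67, the proliferation antigen Ki-67, stood at 149.5, 145.0, 316.4 and 229.5 TPM in LMPP and at 141.0, 137.2, 632.9 and 717.8 TPM in CLP (interaction -1.40 ± 0.25, adjusted p = 0.0408). The number of mitosis genes called for batch dependence ranged with 1 library left out from 0 (without CLP b1r2, LMPP b1r1 or LMPP b1r2, and without LMPP b2r3) to 14 without CLP b2r1; it was 3 without CLP b1r1, 5 without CLP b2r2, 7 without LMPP b2r1 and 18 without the haemoglobin-rich pair. It fell to 0 without the variance trend, and was 5 without the filter on low values, 6 under median-ratio scaling and 5 under quantile normalization.

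**Figure D5:**
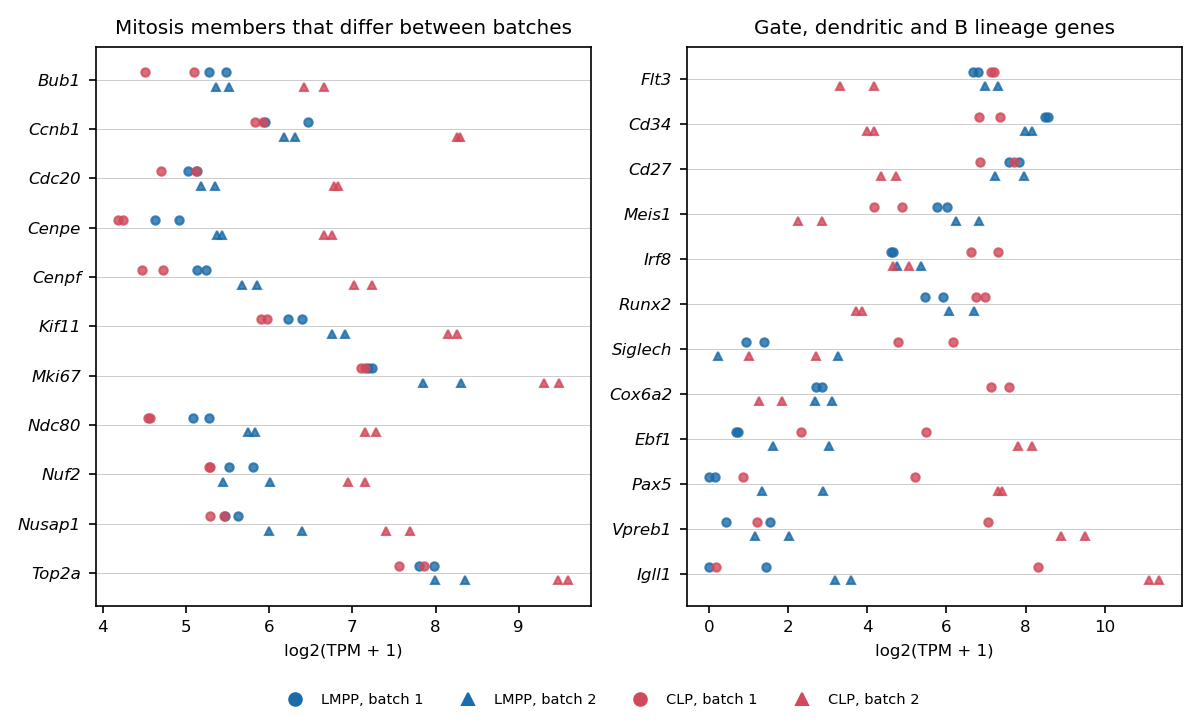
Level as log2(TPM + 1) of the 11 batch-dependent mitosis genes (left) and of 12 gate, progenitor, dendritic cell and B lineage genes picked after their values were seen (right), 1 point per library, blue for LMPP and red for CLP, circles for batch 1 and triangles for batch 2. The 2 CLP libraries of batch 2 (red triangles) are the highest for each mitosis gene, such as Ccnb1 at 313.6 and 304.9 TPM, and the lowest for Flt3 at 8.91 and 17.0 TPM.

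Of the 218 batch-dependent genes, 80 had a higher and 138 a lower value in batch 2, and 198 had opposite signs in the batches. Flt3 had differences of -0.42 in batch 1 and 3.39 in batch 2 (interaction 3.82, adjusted p = 0.0125), and Cd34 of 1.44 and 4.00 (interaction 2.56, adjusted p = 0.0146). In the other direction, the recombinase cofactors Hmgb1 and Hmgb2 stood at 728.1 and 958.8 and at 714.8 and 787.3 TPM in the batch 2 CLP libraries, against 195.1 to 285.0 TPM in the other 6 (interactions -1.75 and -1.92, adjusted p = 0.0255 and 0.0153). Irf8, a factor of dendritic and B cells, stood at 156.5 and 97.7 TPM in the batch 1 CLP libraries and at 23.1 to 40.0 TPM in the other 6 (interaction 2.55, adjusted p = 0.0318). Runx2, known from plasmacytoid dendritic cells, stood at 124.5 and 106.3 TPM in the batch 1 CLP libraries, 13.5 and 12.2 TPM in those of batch 2 and 42.6 to 101.9 TPM in LMPP (interaction 3.77, adjusted p = 0.0125). Cox6a2, a respiratory chain subunit of muscle and plasmacytoid dendritic cells, stood at 191.2 and 139.7 TPM in the batch 1 CLP libraries and at 1.39 to 7.65 TPM in the other 6 (interaction 5.93, adjusted p = 0.00833). Siglech, a marker of the same cells, stood at 70.2 and 26.5 TPM in the batch 1 CLP libraries and at 0.17 to 8.55 TPM elsewhere, without a call (interaction 4.20, adjusted p = 0.138). Over both batches 0 of the 7 dendritic cell markers tested were called in limma (1 higher in LMPP and 1 higher in CLP at an unadjusted p under 0.05), while Cox6a2, Runx2 and Siglech were called higher in CLP without the CLP libraries of batch 2. These 7 had a median of -1.23 in batch 1 and 0.76 in batch 2, and their part in the batch 1 differences was not tested.

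The other batch-dependent list members fell on both sides. Those with the lower CLP level in batch 2 were Cd27, Lax1, Meis1, Tlr7, H2-DMa, H2-Ob, Selplg, Ccr9 and Bcl2. Cd27, a receptor of the tumour necrosis factor family on early lymphoid progenitors, stood at 147.9 to 246.9 TPM in LMPP, 114.3 and 208.7 TPM in the batch 1 CLP libraries and 19.2 and 25.3 TPM in those of batch 2 (interaction 2.63, adjusted p = 0.0409). Bcl2, the survival gene, stood at 50.5 and 52.5 TPM in the batch 1 CLP libraries and at 9.28 and 10.9 TPM in those of batch 2, against 34.6 to 50.9 TPM in LMPP (interaction 1.92, adjusted p = 0.0262). Tlr7, an RNA sensor, stood at 21.3 and 38.6 TPM and at 3.79 and 3.72 TPM in the same libraries, against 9.42 to 30.3 TPM in LMPP (interaction 3.76, adjusted p = 0.0172). Those with the higher CLP level in batch 2 were Erg, Psat1, Canx, Cat and Ezh2. Ezh2, the polycomb methyltransferase needed for heavy chain rearrangement, stood at 425.9 and 504.8 TPM in the batch 2 CLP libraries and at 129.8 to 196.2 TPM in the other 6 (interaction -1.79, adjusted p = 0.0327). Erg stood at 213.1 and 215.2 TPM there and at 66.3 to 107.5 TPM elsewhere (interaction -1.26, adjusted p = 0.0466). Genes in no list were ranked only if batch-dependent, with a symbol and with a mean of 10 TPM or more in a type and batch. Among these, the largest positive interactions were those of Gm9385, Ighv1-78, Rasal1 and Gm12335 (4.46, 4.34, 4.27 and 4.24). The largest negative ones were those of Gm5940, Ptgr1, Mmrn1, Zfpm1 and Dnajc21 (-6.09, -4.04, -3.67, -3.63 and -3.25). Dnajc21, a ribosome assembly cofactor, stood at 167.8 and 179.6 TPM in the batch 2 CLP libraries and at 14.5 to 39.1 TPM in the other 6 (adjusted p = 0.0125). Calls of batch dependence over all genes numbered 52 without CLP b1r1, 0 without CLP b1r2, LMPP b1r1 or LMPP b1r2, 2 without LMPP b2r3, 88 without LMPP b2r1, 100 without CLP b2r2 and 1146 without CLP b2r1.

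Of 19 glycolysis genes, 3 were higher in LMPP, beside 3.15% of all genes, and none was higher in CLP, also at an unadjusted p under 0.05. Hk3, the hexokinase of myeloid cells, was 26.4 to 44.1 TPM in LMPP and 0.45, 3.05, 23.4 and 1.55 TPM in CLP, with CLP b2r1 far above the other CLP libraries (difference 2.96 ± 0.66, adjusted p = 0.0377). Aldoc, an aldolase, had a difference of 1.51 ± 0.32 (adjusted p = 0.0310) and Ldhb, a lactate dehydrogenase subunit, of 1.18 ± 0.28 (adjusted p = 0.0445). Leaving out any 1 library ended the call on Hk3 (except CLP b2r1, adjusted p = 0.0585 to 0.110), Aldoc (except CLP b1r2 and CLP b2r1, 0.0558 to 0.109) and Ldhb (except CLP b1r2, 0.0640 to 0.129). Over the list the median was 0.47, with 0.49 and 0.32 in the batches. Batch 1 alone called 5 members, Hk3, Aldoa, Pgam1, Pgk1 and Slc2a3, and batch 2 alone 0. Hk3 and Aldoa were called without the haemoglobin-rich pair, and without the CLP libraries of batch 2, 4 were, these 2 with Pgam1 and Pgk1. Of 32 oxidative phosphorylation genes, 1 was higher in CLP, Cox5a (-0.71 ± 0.15, adjusted p = 0.0292), beside 1.4% of all genes. This call ended without any 1 library other than CLP b1r2 and LMPP b1r2 (adjusted p = 0.0643 to 0.0977), without the haemoglobin-rich pair and without the CLP libraries of batch 2. None was higher in LMPP (1 at an unadjusted p under 0.05), and the list median was 0.02 in batch 1 and -0.54 in batch 2. The count depended on the scaling, with 7 members higher in CLP under median-ratio scaling and 2 under quantile normalization. In glutathione and redox, Gsta4, a transferase that detoxifies lipid aldehydes, stood at 9.16, 9.47, 8.49 and 23.8 TPM in LMPP and at 0, 0.17, 0.94 and 0 TPM in CLP (difference 3.36 ± 0.36, adjusted p = 0.00197, kept whichever library was left out). Mgst2, which makes leukotriene C4, was higher in CLP (-1.82 ± 0.36, adjusted p = 0.0228), with its call ended without CLP b1r1, LMPP b1r1, LMPP b1r2 or LMPP b2r3 (adjusted p = 0.0622 to 0.0789). Both Gsta4 and Mgst2 were called without the haemoglobin-rich pair and without the CLP libraries of batch 2, with Gstm1 added as higher in LMPP.

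Of 17 endoplasmic reticulum stress genes, 1 was higher in CLP, the ubiquitin ligase gene Syvn1, at 11.2 to 21.2 TPM in LMPP and 20.7, 22.6, 98.5 and 77.9 TPM in CLP (difference -1.5 ± 0.27, adjusted p = 0.0172). Its call ended without LMPP b2r1 (adjusted p = 0.0566) or LMPP b2r3 (0.0585), without the haemoglobin-rich pair and without the CLP libraries of batch 2, where the chaperone gene Calr was called higher in LMPP. No member was higher in LMPP in the fit of all 8 libraries (2 at an unadjusted p under 0.05). In limma, 0 genes were called in the MYC and ribosome biogenesis (19 tested), purine, pyrimidine and one-carbon synthesis (19), cholesterol synthesis (20), BCL2 family (11) and DNA methylation and polycomb (22) lists. Ncl, the nucleolin gene of the first list, was called higher in LMPP without the CLP libraries of batch 2. At an unadjusted p under 0.05 these had 3, 1, 0, 2 and 2 members higher in LMPP and 0, 1, 2, 2 and 2 higher in CLP. Myc itself, the growth regulator, was 130.1 to 201.9 TPM in LMPP and 84.5 to 137.6 TPM in CLP (difference 0.61 ± 0.19, adjusted p = 0.105). Dnmt3b, a DNA methyltransferase, was 33.9 to 39.9 TPM in LMPP and 8.45 to 32.7 TPM in CLP without overlap (difference 1.01 ± 0.29, adjusted p = 0.0816). Neither passed the threshold, which does not show that their levels are alike.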

How the data were processed

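Bulk RNA-seq of 8 libraries, 4 LMPP and 4 CLP, was analysed. The authors deposited TPM per Ensembl gene for mm10, and the submitters' processing notes name Bowtie2 2.2.0, RSEM 1.2.12 and edgeR 3.10.0 without settings. RSEM shares out reads among near copies (the Vpreb, Gimap, Ifitm, Serpina3, H2, Ly6 and haemoglobin genes), whose values are uncertain, and the use of strand in counting is not stated in the labels. Another 17 columns matched no sample by name and were not used. TPM is relative and keeps no depth.

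Symbols and mm10 coordinates came from GENCODE M21 by Ensembl ID (37607 of 38924 matched; 176 of the 12289 tested genes had no symbol). Values were fitted as log2(TPM + 1) with limma 3.58.1 in R 4.3.3, type plus batch, with a variance trend and 5 residual degrees of freedom; tests were two-sided, with Benjamini-Hochberg adjustment over all tested genes, and calls at an adjusted p under 0.05.

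The 31 gene lists and 7 marker lists (679 of 681 entries matched, 592 tested) and the comparison were chosen with earlier results of these data known. Genes were named by a rule in parts. First came the 10 per direction with the largest smaller within-batch difference. These were called genes with a symbol whose higher type averaged 10 TPM or more, with no overlap and 1 sign in both batches. Up to 4 called members per list and all gate genes were added. So were the 5 per direction with the largest batch dependence, among batch-dependent genes with a symbol and a mean of 10 TPM or more in a type and batch. Members behind counts of 5 or fewer were the last part. Of the genes this rule names, 2 are not reported here. Alternatives were another pseudocount, filters, scalings, models and left-out libraries.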

Additional observations from a re-analysis of the deposited data

Results flagged for a closer look

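The sets of 4 libraries examined, each a named gene in 1 type, numbered 272 and did not cover all 149 named genes. Of these sets, 39 held a library whose gap to the nearest of the others passed Dixon's 95% limit, as a share of the whole range. The limit flags about 1 set in 20 where values are normally distributed and the sets independent. These sets share the same libraries and hold genes named for their differences. The 39 flags are therefore not read against that share. LMPP b2r1 stood apart for Rag1 at 4.00 TPM (others 0.51 to 0.68), Fcgr3 at 35.1 TPM (others 0.33 to 3.90), Ly6c2 at 149.9 TPM (others 28.0 to 33.6), Prg2 at 985.9 TPM (others 0.88 to 98.3). It also stood apart for Mgst2 at 40.1 TPM (others 12.2 to 16.1), Itgam at 90.8 TPM (others 14.1 to 22.5), Ifitm6 at 463.4 TPM (others 5.84 to 27.0), Siglech at 8.55 TPM (others 0.17 to 1.60). Further genes of LMPP b2r1 were Cat at 72.7 TPM (others 55.9 to 57.8), Ly6g at 112.4 TPM (others 0 to 1.58), Lyz2 at 2921 TPM (others 207.2 to 595.9). The rest were Bcl2l1 at 9.33 TPM (others 2.24 to 2.90), Ly6c1 at 10.7 TPM (others 2.61 to 2.85), Car1 at 97.3 TPM (others 4.42 to 10.6). Among CLP libraries, b2r1 stood apart for Ctsg at 186.3 TPM (others 4.63 to 17.7), Fcgr2b at 20.1 TPM (others 2.99 to 4.88), Ifitm6 at 202.3 TPM (others 0.20 to 19.5), Prg2 at 537.5 TPM (others 0.77 to 64.9). CLP b2r1 did so too for H2-Aa at 104.8 TPM (others 30.4 to 42.6), Itgam at 48.5 TPM (others 8.53 to 11.7), Lyz2 at 1853 TPM (others 72.8 to 313.8). Others in CLP b2r1 were Hk3 at 23.4 TPM (others 0.45 to 3.05), Ly6c1 at 7.34 TPM (others 0.99 to 2.02), Car1 at 61.7 TPM (others 1.43 to 1.52). Last came Fcgr3 at 34.8 TPM (others 0.35 to 1.2), Ly6c2 at 217.3 TPM (others 7.17 to 33.3), Mcpt8 at 68.1 TPM (others 0.22 to 4.51). LMPP b2r3 stood apart for Hlf at 153.0 TPM (others 84.5 to 91.2), Gsta4 at 23.8 TPM (others 8.49 to 9.47), Irf8 at 40.0 TPM (others 23.1 to 25.8), Dhodh at 14.1 TPM (others 8.74 to 9.06). CLP b2r2 stood apart for Trbc2 at 56.6 TPM (others 9.85 to 14.8), Nkg7 at 27.0 TPM (others 77.8 to 87.1), Cd3e at 10.4 TPM (others 0 to 1.39). LMPP b1r1 stood apart for Hoxa10 at 9.78 TPM (others 5.13 to 5.46), Gm9385 at 0.82 TPM (others 0 to 0.05). LMPP b1r2 stood apart for Psat1 at 123.0 TPM (others 92.4 to 97.3). CLP b1r1 stood apart for Ly6d at 515.7 TPM (others 53.4 to 117.2). CLP b1r2 stood apart for Mecom at 16.2 TPM (others 0.11 to 2.72). LMPP b2r1 and CLP b2r1, the haemoglobin-rich pair, account for 14 and 13 of the 39 flags, and these include genes of neutrophils (Ly6g, Lyz2), eosinophils (Prg2) and erythroid cells (Car1).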

How the results depend on the processing

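The counts of genes higher in LMPP and higher in CLP, 387 and 172, moved with the model. They were 148 and 63 without the filter on low values, 173 and 55 without the batch term, 933 and 362 with all 12 libraries in the fit, 128 and 44 without the haemoglobin-rich pair, and 114 to 330 and 66 to 195 with 1 library left out. Higher in CLP came to 305 under median-ratio scaling and 277 under quantile normalization, where the share of calls higher in LMPP was 46.5% and 51.7%, and higher in LMPP to 112 in batch 2 alone. With the replicate block the counts were 42 and 19, on 2 residual degrees of freedom. No label ties a number to an animal or day. Deviations of same-numbered samples from their type and batch mean correlated at -0.0358 in batch 1 and at 0.154 for b2r1. With 2 libraries per type and batch, both replicate numbers of batch 1 give the same value by construction. The b2r1 libraries, which share the neutrophil and erythroid signal, correlated at r = 0.921 across genes, against 0.854 for LMPP b2r1 with CLP b2r2. The 218 batch-dependent genes came to 130 with a pseudocount of 0.1, 62 without the filter, 107 and 87 under the 2 scalings, 105 without mitochondrial and ribosomal RNA genes, 5 without the variance trend, 1601 without the haemoglobin-rich pair and 0 to 1146 with 1 library left out. In batch 1 alone the difference of Tlr7 turned to -1.33, of H2-Ob to -1.03, of Ccr9 to -1.60, of Runx2 to -1.19 and of Dnajc21 to 0.90; without the CLP libraries of batch 2, H2-Ob was at -1.03 and Runx2 at -1.19. For single genes over all alternatives, 2535 values stayed on their side of the threshold, 640 lost the call, 76 gained one and 7 turned with a call on either side. Uncalled values included, 94 values of 31 of the 149 genes had another sign than the reported one. The causes of these changes were not tested. TPM gives no depth, so no limit of detection can be stated.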
